A study of Mus musculus with 4 samples.

Results

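The genes of voltage-gated sodium and calcium channels were examined for N6-methyladenosine (m6A), a methyl mark on adenosines of mRNA, in the spinal cord of mice with and without a nerve injury. They were found by gene name, as every deposited peak whose gene name begins with Scn, a number and a or b, or with Cacna, Cacnb or Cacng. The RefSeq table holds 40 such genes, of which 35 had at least 1 peak. They gave 126 of the 34406 peaks of the sham list, 138 of the 33556 peaks of the CCI list and 24 of the 4812 rows of a table of peaks that differed between the groups. The data came from methylated RNA immunoprecipitation sequencing (MeRIP-seq), in which an anti-m6A antibody pulls down fragmented RNA (the IP library) and the same RNA before capture serves as input. The mice were of the C57BL/6J strain, 6 to 8 weeks old, and their spinal cord was collected 7 days after surgery. The surgery was either chronic constriction injury (CCI), a loose tying of the sciatic nerve with silk, or a sham operation that exposed the nerve and left it untied. The labels name no transgene, deletion or drug for either group. Each group had 1 IP and 1 input library, and neither the number of mice behind a library nor the spinal segment is given in the sources used here. There was therefore no replicate check on any difference between CCI and sham, and no test between the groups was made. The injury is a lesion of a peripheral nerve, whereas the RNA came from the cord with all its cell types.

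m6A is written on nuclear RNA by a complex built on METTL3 and METTL14 and can be removed by FTO and ALKBH5, and it is known to lie mostly near stop codons, in 3′-UTRs and in long internal exons. Voltage-gated sodium channels carry the upstroke of the action potential. Each has a pore-forming alpha subunit, the targets of local anaesthetics, and beta subunits that set its gating and its place in the membrane. Voltage-gated calcium channels let calcium into terminals and dendrites when the membrane depolarizes, and they combine a pore-forming subunit with an alpha2delta subunit and a cytoplasmic beta subunit. The gamma subunit genes encode mostly regulators of AMPA-type glutamate receptors. In the dorsal horn, presynaptic calcium channels gate the release of transmitter from sensory fibres, and alpha2delta proteins bind the pain drugs gabapentin and pregabalin.

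The consensus of m6A is an adenosine inside GGAC, the core of a longer motif. Genome sequence was not used here, so GGAC was looked for only in the 300 bases around RefSeq transcript starts (250 before and 50 after, build GRCm38.p6), on the strand of the gene, where such a window overlapped a peak. The start sequences used covered 41 starts in 30 of the 40 channel genes, and starts outside that set were not searched. A window overlapped a peak at 10 starts in 10 channel genes, and 4 GGAC sites in 3 of them lay under a listed peak. They are shown as 30-base windows because they are the places at which a peak can be tied to letters, with GGAC in capitals.

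Scn8a: gccgacctgtcccGGACtcagcataactaa
Scn4b: gaagagggctgcccaggctGGACcctacgg
Cacng2, upstream site: ggaggcgcctcgaGGACcccctccctcccc
Cacng2, downstream site: actgtctaggtccGGACcatgagagatggt

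The *Scn8a* window lies at chr15:100936272-100936301 on the plus strand, with GGAC starting 15 bases into the transcript, under a peak whose fold enrichment was 3.07 for sham and 1.73 for CCI. The *Scn4b* window lies at chr9:45138644-45138673 on the plus strand, with GGAC starting at base 40, under a peak of 4.46 in sham and 6.01 in CCI. The *Cacng2* windows lie on the minus strand at chr15:78119412-78119441 and chr15:78119286-78119315. They start their GGAC 148 and 22 bases before the RefSeq start used, still inside the annotated gene, under a CCI peak of 2.78. The sham list had no *Cacng2* peak there, but over the same bases a peak of 10.9 named for A730060N03Rik, a gene on the opposite strand, so these sites cannot be given to *Cacng2* with certainty. GGAC stood in the first 50 bases of 9 of 41 channel gene starts (22.0%) and of 18.9% of all 32851 RefSeq starts, and in the whole 300 bases of 26 of 41 (63.4%) and of 65.6%. The starts of *Cacng8*, *Cacna2d2* and *Scn2b*, whose peaks are described further on, held no GGAC in the part of the window under their peaks. That says only that these 4 letters were not there.

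The fold enrichment of a peak is the ratio of IP to input as deposited, and it is the unit of every level given here. In sham, 35 of the 40 genes (87.5%, 95% Wilson interval 73.9 to 94.5%) had a peak, and in CCI 31 (77.5%, 62.5 to 87.7%). Potassium channel genes, taken as the nearest family of like function, had a peak in 67 of 94 genes in sham (71.3%, 61.4 to 79.4%) and 63 of 94 in CCI (67.0%, 57.0 to 75.7%). Over all protein-coding RefSeq genes the shares were 51.5% and 49.9%. The intervals cover counting error only, and a gene can lack a peak because its RNA is scarce. *Scn4a*, *Cacna1s* and *Cacng1*, the skeletal muscle subunits, *Cacna1f*, the retinal calcium channel, and *Cacng6* had no peak in either list. The other muscle markers, *Ckm*, *Acta1* and *Myh4*, lacked a peak as well, whereas 5 of 6 neuronal markers, 4 of 4 motor neuron markers and 5 of 6 *Hox* genes of the spinal cord had one in both lists. Glial genes of the cord were listed too, with all 4 markers each of oligodendrocytes, astrocytes and microglia in both lists.

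**Figure D1:**
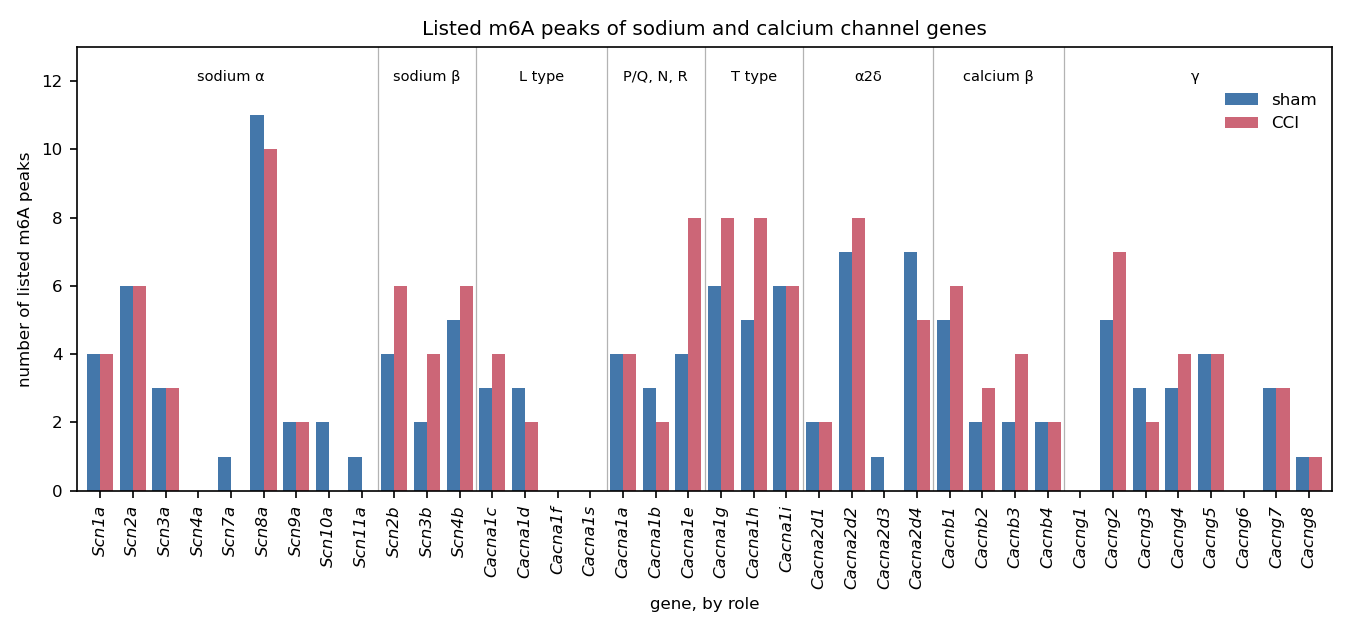
Number of listed m6A peaks (vertical axis) for 38 of the sodium and calcium channel genes (horizontal axis, grouped by role), with blue bars for sham and red bars for CCI. *Scn8a* has the most peaks, 11 in sham and 10 in CCI, and *Scn7a*, *Scn10a*, *Scn11a* and *Cacna2d3* have bars in sham only.

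A channel gene with a peak carried a mean of 3.6 peaks in sham (35 genes) and 4.45 in CCI (31 genes). The means were 2.67 and 2.70 over all genes and 3.66 and 3.86 in potassium channel genes. The channel means do not cover the same genes, since *Scn7a*, *Scn10a*, *Scn11a* and *Cacna2d3*, with 1 or 2 peaks each, count in sham only. Part of the higher mean in CCI therefore comes from the smaller number of genes. The calcium channel genes went from 81 peaks in sham to 93 in CCI, and the sodium channel genes had 45 in each list. The length under peaks did not follow the number of peaks, since the peaks covered 49686 exonic bases in sham and 48381 in CCI. In 10 cases a single sham peak overlapped 2 or more CCI peaks, and in 3 cases a single CCI peak overlapped 2 or more sham peaks. The median peak of the channel genes stood at 6.20 for sham and 6.30 for CCI, beside 5.70 and 5.72 for all peaks. The strongest were a *Cacng2* peak in sham (161, at percentile 99.3 of that list) and a *Cacna1e* peak in CCI (327, at percentile 99.8).

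By the authors' annotation, the 3′-UTR held 54.8% of the sham peaks (95% Wilson interval 46.1 to 63.2%) and 58.0% of the CCI peaks (49.6 to 65.9%). Exons outside the UTRs held 30.2% (22.8 to 38.7%) in sham and 28.3% (21.4 to 36.3%) in CCI. The 5′-UTR held 15.1% (9.87 to 22.4%) in sham and 13.8% (8.99 to 20.5%) in CCI. The 3′-UTR share over all peaks was 48.9% in sham and 49.8% in CCI. The intervals of the channel genes and of the potassium channel genes overlapped in every region, and the 3′-UTR share of all peaks lay inside the channel interval in both lists. The 3′-UTR peaks of the channel genes had a median of 8.13 in sham and 7.96 in CCI, against 4.82 and 3.54 for the peaks in exons. Their 5′-UTR peaks stood close to the 3′-UTR, at 7.06 and 6.72. Over all peaks the 3′-UTR was likewise above exons, with 5.81 and 5.92 against 4.78 and 4.69. The 5′-UTR was highest there, at 8.21 in sham and 8.51 in CCI.

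**Figure D2:**
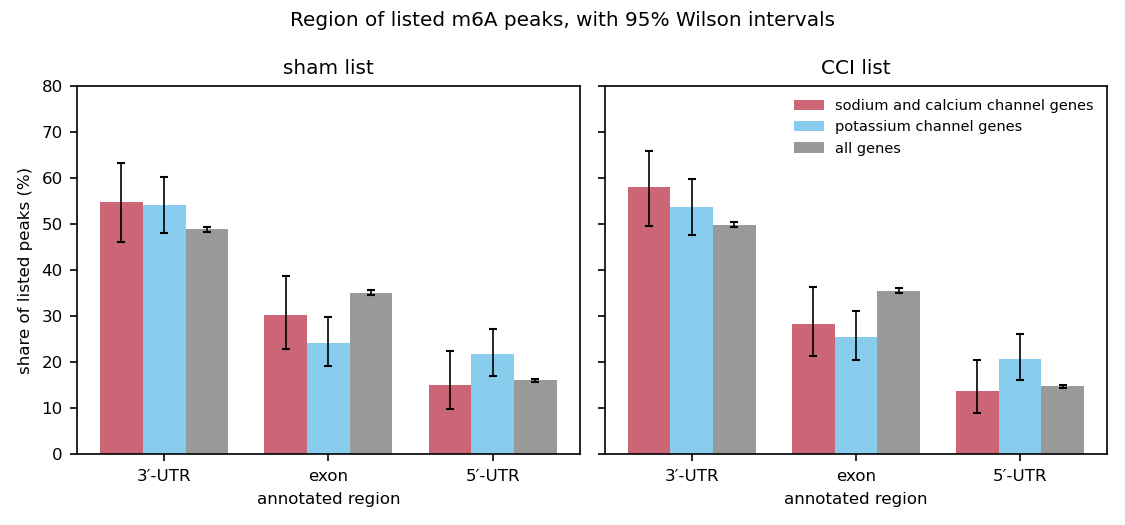
Share of listed peaks (vertical axis, percent) in each annotated region for sodium and calcium channel genes (red), potassium channel genes (blue) and all genes (grey), with the sham list on the left and the CCI list on the right. Bars carry 95% Wilson intervals (counting error only), and the 3′-UTR bar of the channel genes stands at 54.8% in sham and 58.0% in CCI.

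To compare levels, overlapping sham and CCI peaks were ranked as partners by shared over combined exonic bases. Each sham peak was paired with its best CCI partner where the choice was mutual. This gave 108 channel pairs among 27380 in the whole tables. The median log2 ratio of fold enrichment, CCI over sham, was 0.08 in channel pairs (quartiles -0.35 and 0.52), 0.07 in 206 potassium channel pairs and 0.03 in all pairs. Of the 108, 59 were higher in CCI, 48 lower and 1 equal. A log2 ratio of at least 1 (2-fold higher in CCI) was reached by 10 pairs, or 9.26%, beside 8.59% of all pairs. A ratio of at most -1 was reached by 4, or 3.70%, beside 7.25% of all pairs. With so few pairs, no test was made of these shares. The 14 pairs past 2-fold lay in 13 genes. Of these pairs 6 lay in a 5′-UTR, those of *Scn2b*, *Scn3b*, *Scn4b*, *Cacna2d2*, *Cacng3* and *Cacng8*.

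**Figure D3:**
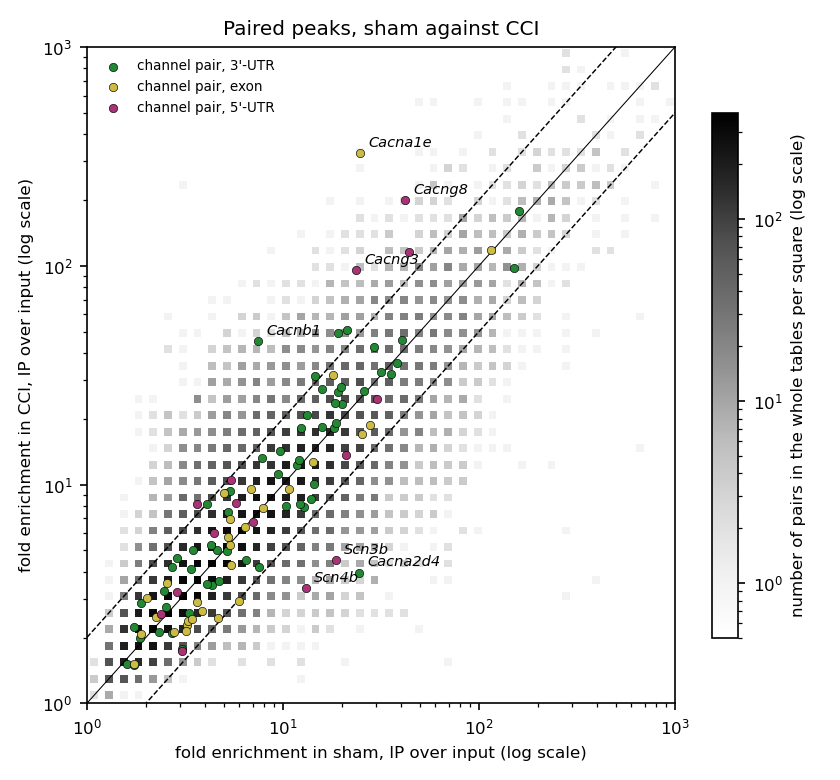
Fold enrichment of IP over input in sham (horizontal axis, log scale) against CCI (vertical axis, log scale) for 104 channel pairs, coloured by the region of the sham peak, over the 27380 pairs of the whole tables as grey squares. The solid line marks equal values and the dashed lines a 2-fold difference. The *Cacna1e*, *Cacng8*, *Cacng3* and *Cacnb1* pairs lie above the upper dashed line, and *Cacna2d4*, *Scn3b* and *Scn4b* below the lower one.

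Among the pore-forming sodium channel genes, *Scn8a* (ENSMUSG00000023033), which encodes the main channel of nodes of Ranvier and of the axon initial segment, had the most m6A peaks. Its longest was the longest of all channel peaks, 2189 exonic bases over the last coding exon and 3′-UTR at chr15:101039764-101041952, with 15.9 in sham. CCI held 2 peaks there, 7.77 over the coding end and 18.4 over 1560 bases of the 3′-UTR. A peak near the end of the transcript at chr15:101045488-101045818 was 15.9 in sham and 27.4 in CCI, a log2 ratio of 0.79. The 2 smaller 3′-UTR peaks between them were 3.49 and 4.29 in sham and 5.01 and 5.31 in CCI. All 4 paired 3′-UTR peaks of *Scn8a* were thus higher in CCI, each by less than 2-fold. The peak over the transcript start shown above had a log2 ratio of -0.83, and a further 5′-UTR peak over an upstream start was 2.39 in sham and 2.55 in CCI (0.09). *Scn8a* also had 3 peaks in sham alone, at chr15:100968643-100968762 (18.6, over 120 bases), chr15:100940580-100940640 (6.39) and chr15:100940250-100940400 (5.81).

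*Scn2a*, a channel of unmyelinated axons and of the initial segment, had 6 pairs, 5 of them higher in CCI. Its main 3′-UTR peak, at chr2:65764541-65765200, was 19.9 in sham and 27.9 in CCI. *Scn3a*, better known from the embryonic nervous system, had its 3′-UTR peak at chr2:65460143-65460831 at 14.6 in sham and 31.4 in CCI, a log2 ratio of 1.10. The adjoining peak in its last coding exon was 10.7 and 9.58, so the difference was seen on the 3′-UTR side of that stretch only. *Scn1a*, the channel of fast-spiking interneurons, had a 3′-UTR peak of 1349 bases with the same borders in both lists at chr2:66272546-66273894, 11.8 in sham and 12.3 in CCI. Exon 17 of 27 held a peak in *Scn2a* (6.88 in sham, paired with 9.55 in CCI), *Scn3a* (4.65 and 2.46) and *Scn8a* (1.73 and 1.52). The CCI peak of that *Scn2a* pair, at chr2:65717505-65718965, was annotated to a 3′-UTR and not to exon 17. *Scn2a*, *Scn3a* and *Scn8a* are close paralogs, and how reads that map to several of them were handled is not given in the sources used here.

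*Scn9a*, whose loss abolishes pain in people, had a 3′-UTR peak of 9.44 in sham and 11.2 in CCI. A second *Scn9a* peak, 6.43 in both lists, carried the annotation of an exon of another gene that overlaps it, and since strand use in peak calling is not stated, the 2 cannot be told apart.

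The sham-only genes of this group were *Scn10a* and *Scn11a*, the tetrodotoxin-resistant channels of nociceptors in sensory ganglia, and *Scn7a*, an atypical sodium-sensing member. *Scn10a* had a 3′-UTR peak at chr9:119608516-119608965 of 8.13 (450 bases) and a last-exon peak of 2.79, *Scn11a* a 3′-UTR peak at chr9:119753999-119754358 of 9.68 (360 bases), and *Scn7a* a peak of 2.29 (121 bases). With *Cacna2d3*, 4 of 35 channel genes with a sham peak had none in CCI, beside 8.88% of all genes with a sham peak. No channel gene had a peak in CCI alone, beside 5.21% of all genes with a CCI peak. Of the 6 sensory ganglion markers, which include *Scn10a* and *Scn11a*, 3 had a peak in sham and 1 in CCI, *Prph* being the gene with a peak in both. *Calca* and *Avil* had none in either list. In bulk tissue, fewer cells of a type and less RNA per cell cannot be told apart, and the part of ganglion RNA in the sham-only peaks was not tested.

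All 4 sodium beta subunit genes had peaks in both lists, 13 in sham and 18 in CCI, all of the sham peaks in a 5′- or 3′-UTR. The main 3′-UTR peaks of *Scn2b*, *Scn3b* and *Scn4b* differed little between the lists. The largest *Scn2b* peak was 5.21 in sham and 4.96 in CCI, the *Scn4b* peak nearest the transcript end 12.1 and 12.9, and the *Scn3b* peak of 1135 bases 18.6 in sham and 19.1 over its paired CCI piece. Peaks in the 5′-UTR stood farther apart. *Scn2b*, the subunit that links covalently to the alpha subunit, had a 5′-UTR peak at chr9:45117812-45118021 of 3.65 in sham and 8.16 in CCI, with the same borders and a log2 ratio of 1.16. *Scn3b* had a 5′-UTR peak at chr9:40269217-40269396 of 18.6 in sham and 4.52 in CCI (-2.04). *Scn4b*, linked to resurgent sodium current, had a short peak just before its RefSeq start, at chr9:45138395-45138484, of 13.1 in sham and 3.36 in CCI (-1.96). The next peak downstream, which holds the GGAC shown above, was 4.46 and 6.01, so the neighbouring peaks of *Scn4b* pointed in opposite directions. The 5′-UTR peaks of *Scn3b* and *Scn4b* were short and had less support, with a deposited log10 false discovery rate of IP against input of -3.13 and -4.76 in CCI, compared with -65.9 and -90.0 in sham and CCI for the *Scn2b* peak.

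**Figure D4:**
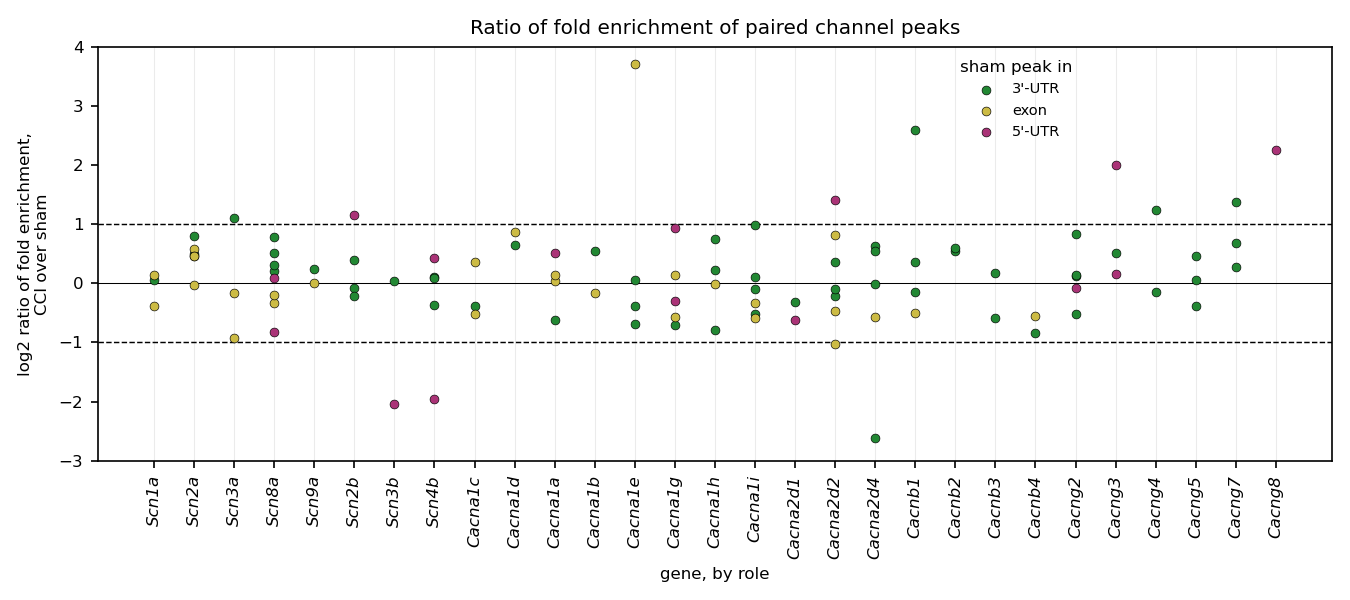
Log2 ratio of fold enrichment, CCI over sham (vertical axis), of 104 paired peaks, by gene in the order of roles (horizontal axis) and coloured by the region of the sham peak. Dashed lines mark a 2-fold difference. Of the points drawn, 9 reach the upper line or lie above it and 4 lie below the lower one.

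The pore-forming calcium channel genes of the P/Q, N and R types, which drive transmitter release, carried strong peaks in 2 places, a long inner exon and the 3′-UTR. *Cacna1a* (P/Q type) had 115 in sham, over 1230 exonic bases around exon 19 of 47 at chr8:84559021-84567732, and 118 in CCI, over 1289. Its 3′-UTR peak at chr8:84638637-84640126 was 151 in sham and 98.0 in CCI. *Cacna1b* (N type, the target of ziconotide) had 14.2 in sham and 12.7 in CCI around exon 19 of 46, and 9.70 and 14.2 in its 3′-UTR. In *Cacna1e* (R type), the peak around exon 20 of 47 at chr1:154468968-154472744 spanned 1140 exonic bases at 24.8 in sham. In CCI the stretch was listed as 3 peaks of 6.35, 327 and 6.48, the middle piece covering 421 bases. The log2 ratio of the paired middle piece was 3.72, the highest of the channel pairs, and it compares a short core with a longer peak. The deposited log10 false discovery rate was -124 for both, and this pair was not formed when 50% of each peak had to overlap. The 3′-UTR peak of *Cacna1e* was 25.8 in sham and 26.8 in CCI.

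The T-type genes, whose channels open at low voltage and support burst firing, had no pair past 2-fold among 15, beside 8.59% of all pairs higher and 7.25% lower. They too carried a peak in an inner exon in the first part of the gene. It was 25.4 in sham and 17.1 in CCI in exon 8 of 36 of *Cacna1g*, 7.89 and 7.82 in exon 9 of 35 of *Cacna1h*, and 5.45 and 4.30 in exon 10 of 37 of *Cacna1i*. Their strongest 3′-UTR peaks were 13.9 and 8.55 in *Cacna1g*, 20.1 and 23.4 in *Cacna1h*, and 38.3 and 36.1 in *Cacna1i*, the last within a few bases of the transcript end. The strongest *Cacna1g* peak of all lay in its 5′-UTR, at 30.2 in sham and 24.5 in CCI. Among the L-type genes, *Cacna1c* had a 3′-UTR peak of 10.4 in sham and 8.00 in CCI, and *Cacna1d* of 13.3 and 20.9. Neither passed 2-fold.

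The alpha2delta genes had 17 peaks in sham and 15 in CCI, and of their 14 pairs 1 was 2-fold higher and 2 were 2-fold lower, beside 8.59% and 7.25% of all pairs. *Cacna2d1*, the gabapentin-binding subunit known to be induced in sensory neurons after nerve injury, had a 5′-UTR peak of 20.9 in sham and 13.6 in CCI over 61 bases and a 3′-UTR peak of 4.34 and 3.47. Both were lower in CCI by less than 2-fold. *Cacna2d2*, the other gabapentin-binding subunit, had a 5′-UTR peak at chr9:107399792-107400242 of 43.8 in sham and 116 in CCI (1.41), whereas its exon 2 peak was 6.00 and 2.95 (-1.02) and its main 3′-UTR peak 4.10 and 3.53. *Cacna2d4*, best known from the retina, had a long peak annotated to a 3′-UTR at chr6:119316600-119323703 that hardly differed, 18.3 and 18.2. In sham this peak ended 28704 bases before the transcript end on the genome. Its strongest peak, in the last exon of a short transcript, was 27.9 in sham and 18.8 in CCI. A weaker-supported *Cacna2d4* peak at chr6:119350758-119351027 was 24.4 in sham and 3.96 in CCI (-2.62), the lowest ratio of the channel pairs, with a log10 false discovery rate of -5.81 and -2.40. *Cacna2d3* had a single peak, in sham, of 16.3 over 61 bases at its transcript start.

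The cytoplasmic beta subunits, which carry the pore to the membrane, had their strong peaks in the 3′-UTR. *Cacnb1* (ENSMUSG00000020882) had a peak at its very end, chr11:98001508-98001688, of 7.47 in sham and 45.3 in CCI (2.60). The next 3′-UTR peak of the gene was 2.34 in sham and 2.11 in CCI (-0.15). The long *Cacnb1* peak upstream, with 1381 exonic bases and 18.4 in sham, was broken in CCI into pieces of 23.6, 3.56 and 1.82. The end peak had less support, with a log10 false discovery rate of -7.91 in sham and -15.3 in CCI. For the long peak it was -311 in sham and, over its paired CCI piece, -228. The other beta genes stayed within 2-fold. *Cacnb2* was 29.0 in sham and 42.4 in CCI, *Cacnb3* 40.3 and 45.6, and *Cacnb4* 7.57 and 4.22. An exon peak named for *Cacnb4* overlaps its 3′-UTR peak and is annotated to an overlapping gene, so its 3.89 and 2.63 are not a separate site of *Cacnb4* with certainty.

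Of the gamma genes, 13 of 17 pairs were higher in CCI, beside 14184 of all 27380, and 4 were 2-fold higher, beside 8.59%. None was 2-fold lower, beside 7.25%. *Cacng8*, an AMPA receptor regulator best known from the hippocampus, had a single peak, over its 5′ end at chr7:3390683-3394474, with the same borders in both lists, 41.8 in sham and 200 in CCI (2.26). Its log10 false discovery rate was -91.3 and -91.2. *Cacng3* had a 5′ peak at chr7:122671119-122671447 of 23.7 in sham and 95.7 in CCI (2.01), which lies before its RefSeq start. Its next peak, which began just inside the start, was 2.90 in sham, and the CCI peak paired with it, 3.24, was named for the gene Gm44749. *Cacng7* had 3 peaks in its 3′-UTR, of 3.40, 2.87 and 19.2 in sham and 4.12, 4.63 and 49.5 in CCI, the last with a log2 ratio of 1.37. *Cacng4* had a peak of 1759 bases at chr11:107733131-107734889 at 21.3 in sham, and CCI held 2 peaks there, 50.8 over 1044 bases (1.25) and 9.46 over 686. The strongest sham peak of *Cacng4*, at the transcript end, was 35.6 in sham and 32.1 in CCI.

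*Cacng2*, which encodes stargazin, a protein that brings AMPA receptors to synapses, had the strongest sham peak of the channel genes. The peak at chr15:77994832-77995580 in its 3′-UTR was 161 in sham and 178 in CCI, a log2 ratio of 0.14. Its other 3′-UTR peaks were 14.4, 4.61 and 5.11 in sham and 10.1, 5.01 and 9.14 in CCI. *Cacng5* was 31.6 and 32.8 at its strongest peak. *Cacng2* and *Cacng5* thus showed no pair past 2-fold, whereas *Cacng3*, *Cacng4*, *Cacng7* and *Cacng8* each had 1.

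**Figure D5:**
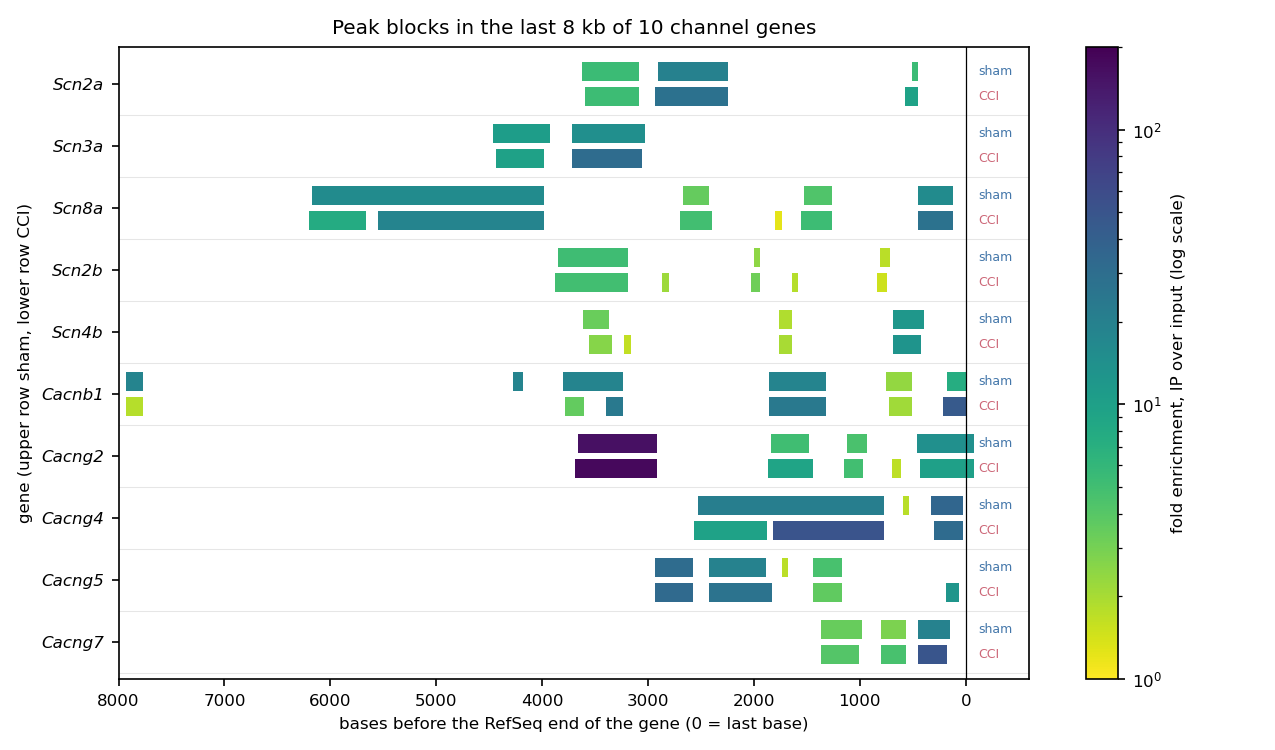
Exonic blocks of the peaks in the last 8000 bases of 10 channel genes, placed by their distance in bases before the RefSeq end of the gene (horizontal axis) and coloured by fold enrichment of IP over input (log scale), with sham above and CCI below in each gene. The borders recur between the lists, the long sham peaks of *Scn8a*, *Cacnb1* and *Cacng4* are broken up in CCI, and the peaks nearest the end of *Cacnb1* and *Cacng7* are darker in CCI.

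Most channel peaks had a counterpart. In sham 108 of 126 peaks (85.7%, 78.5 to 90.8%) overlapped a CCI peak by at least 1 base of exon, and 18 (14.3%) did not, beside 16.1% of all sham peaks. In CCI 118 of 138 (85.5%, 78.7 to 90.4%) overlapped a sham peak, and 20 (14.5%) did not, beside 12.3% of all CCI peaks and 8.37% of the potassium channel peaks. The unshared peaks were short, with a median of 91.0 bases in both lists. They were also weak, with a median of 4.01 in sham and 2.01 in CCI, compared with 6.68 and 7.64 for shared ones. At 5 or more, 8 were left in sham and 3 in CCI. The share of all peaks that were unshared at that level is not given here, so these counts have no background beside them. Their log10 false discovery rates ran from -6.07 to -1.58 for the 8 in sham and from -4.88 to -1.99 for the 3 in CCI. The 3 in CCI were a 5′-UTR peak of *Cacng4* at chr11:107794438-107794527 (10.9), a 3′-UTR peak of *Cacng5* at chr11:107874665-107874785 (12.5) and a 5′-UTR peak of *Cacnb3* at chr15:98635033-98635093 (6.25). The 8 in sham were the 3 of *Scn8a*, those of *Scn10a*, *Scn11a* and *Cacna2d3* given above, and 2 near the end of *Cacna2d4* (15.1 and 13.9).

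The table of differential peaks held 24 rows for 17 channel genes, of which 17 were annotated to a 3′-UTR, 3 to a 5′-UTR and 4 to other exons. Of all 4812 rows, the counts were 2651, 736 and 1425 in the same order. Only the positions of rows were used. The channel rows overlapped 24 of the 126 sham peaks (19.0%, 13.1 to 26.8%) and 26 of the 138 CCI peaks (18.8%, 13.2 to 26.2%). Rows of the whole table overlapped 14.3% of all sham peaks and 15.6% of all CCI peaks. For potassium channel peaks the shares were 18.1% in sham and 21.1% in CCI. Of the 24 rows, 23 overlapped a peak in both lists, and the ratio of the list values was higher in CCI for 12 and lower for 11. These log2 ratios ran from -0.84 in *Cacnb4* to 2.01 in *Cacng3*. Of the channel pairs past 2-fold, only those of *Cacng3* and *Scn2b* overlapped a row of the differential table. The other pairs past 2-fold, among them those of *Cacna1e*, *Cacnb1*, *Cacng8* and *Cacna2d4*, overlapped none. *Scn8a* had 3 rows, and *Scn2a*, *Cacna2d4*, *Cacnb4*, *Cacng2* and *Cacng7* had 2 each. The row with a peak in 1 list only lay in an exon of *Scn8a*, where CCI had a peak of 2.91.

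A list of 35 genes that act with these channels gave 146 peaks in sham and 134 in CCI, with 33 genes listed in each. Of their 122 pairs, 7 were at least 2-fold higher in CCI (5.74%) and 4 at least 2-fold lower (3.28%), beside 8.59% and 7.25% of all pairs, with a median log2 ratio of 0.05. *Ank3*, which encodes ankyrin-G, the anchor of sodium channels at the initial segment and nodes, had 19 peaks in sham and 17 in CCI, with an inner exon peak of 9.0 and 23.7 (1.40). *Nalcn*, the sodium leak channel, had an exon peak of 4.36 and 10.1 (1.21). *Stx1a*, the syntaxin that binds presynaptic calcium channels, had an exon peak of 1.80 and 7.30 (2.02). The calmodulin genes, whose protein regulates both channel families, differed in direction. The 5′-UTR peak was 29.3 in sham and 79.4 in CCI in *Calm2* and 72.7 and 23.0 in *Calm3*. The other pairs past 2-fold were in *Ank2*, *Rimbp2* and *Tpcn1*, higher in CCI, and in *Cabp1*, *Sptbn4* and *Tpcn2*, lower.

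Pairs were also split by the higher of their values, which a difference between the lists itself raises, so the split describes where they lay and no more. Where the higher of the values was below 5, 0 of 33 channel pairs passed 2-fold (1.80% of all pairs). From 5 to 20 it was 5 of 46 (10.9%, beside 16.7%), and at 20 or more 9 of 29 (31.0%, beside 38.5%). By region, 6 of 16 channel pairs in a 5′-UTR passed 2-fold, 4 higher (25.0%) and 2 lower (12.5%), beside 10.6% and 12.9% of all 5′-UTR pairs. In the 3′-UTR it was 4 higher (6.56%) and 1 lower (1.64%) of 61, beside 8.40% and 6.46%. With these few pairs the shares describe the libraries, and no test was made of the difference. Without read counts in the files, library depth is unknown and a fold enrichment carries no interval.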

How the data were processed

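MeRIP-seq data of mouse spinal cord were used as 3 deposited tables, a peak list for sham, a peak list for CCI and a table of peaks that differed. Fold enrichment, the ratio of the IP to the input signal at a peak, was calculated by the authors and kept as deposited. The deposited log10 false discovery rate of IP against input was treated as a score. The submitters' processing notes name GRCm38, fastp, HISAT2, HOMER and ChIPseeker, the methods of the paper name Cutadapt, bowtie and MACS2, and the column names are those of exomePeak. Versions and the use of strand in peak calling are not given in the sources used here. The differential table also holds the authors' own fold changes, p-values and false discovery rates of CCI against sham, which were not used. Only the positions of its rows were.

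Members were found by gene name, in all 3 tables. Peaks were matched on the bases of their exonic blocks, 1 shared base being enough, and pairs were mutual best partners by shared over combined bases. A pair was counted as past the threshold at an absolute log2 ratio of at least 1, against all 27380 pairs. With 1 library per group there is no test. Shares carry 95% Wilson intervals, which cover counting error only. The channel genes, the potassium channel genes, the 35 partner genes and the cell type markers were chosen with earlier results of these data known. The genes were accounted for by role, except that a few are not reported here by name and are left out of the plots. Named in full were the strongest peaks, pairs past 2-fold, genes in 1 list only and unshared peaks of at least 5. The *Cacna1a*, T-type and exon 17 comparisons and the partner genes named were chosen after their values were seen. Overlap and pairing were tested on simulated data. RefSeq tables of GRCm38.p6 gave gene extents, for which all 40 symbols matched, and start sequences, which covered 30 of these genes. Alternatives covered the peak filters, the overlap, the unit of counting, the centring and the fold. Scripts ran in Python 3.11.15 with scipy 1.17.1 for the intervals, pandas 2.3.3 and numpy 2.4.6 for the tables, and matplotlib 3.10.9 for the plots.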

Additional observations from a re-analysis of the deposited data

How the results depend on the processing

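Of 80 recomputed values, 71 kept their direction and moved by less than the limits set, and none reversed. The 80 include the ratios of the single pairs past 2-fold, which could hardly move. Centring shifted each of these by the same 0.03, and a pair still formed under the stricter overlap kept its ratio. Pairs no longer formed were not counted among the 80. Counting the strongest peak of each gene alone moved the median fold enrichment to 18.6 in sham and 27.4 in CCI. Counting each gene and region a single time moved the 5′-UTR share to 22.7% in sham and 23.4% in CCI and the 3′-UTR share in CCI to 46.9%. Of the channel peaks in CCI, 73.2% had a sham partner when 50% of each peak had to be shared, and 91.7% did among those with a fold enrichment of at least 2. The shares of all CCI peaks under these rules are not given here. At an absolute log2 ratio of at least 0.5, 29 pairs were higher in CCI and 20 lower, beside 22.1% and 19.4% of all pairs. Under the stricter overlap 102 channel pairs remained among 24964 in the whole tables, without the *Cacna1e* pair past 2-fold, and 8 were higher and 4 lower. Alternatives added after seeing the data left out peaks annotated to another gene (10 higher, 4 lower) or pairs whose lengths differed by more than 1.5 times (7 higher and 3 lower of 92, beside 7.71% and 5.67% of all pairs). For the stricter overlap and for the first of these, the shares of all pairs past 2-fold are not given here. Those counts therefore cannot be set against the whole tables. No paired analysis was possible because sham and CCI were represented by 1 IP and 1 input library each. The search for GGAC and GGACT inside the peaks was not run, since genome sequence was not used here. Depth is unknown, and no library could be left out.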
